A study of Mus musculus with 6 samples.

Results

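The intermediate filament genes of retinal glia were described in ischemic mouse retinas, with their linker and nuclear lamin relatives. The 6 genes are Gfap, Vim, Nes and Synm, whose proteins build or join the cytoplasmic filaments of glia, Plec, which ties these filaments to the rest of the cell, and Lmna, a filament of the nuclear envelope. They were picked by name from the 32285 genes of the count table, with their values in this same comparison already known, so their levels are given as a description and without a test. All 6 had enough reads to be among the 20021 genes that entered the fit.

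Retinas came from wild-type C57BL/6J mice at postnatal (PN) day 18. Both groups spent PN8 to PN13 at 75% O2, the oxygen-induced retinopathy (OIR) model, in which the growing capillaries of the central retina are lost and the tissue becomes ischemic on return to room air. After this hyperoxia and until collection, the OIR-CIH group underwent chronic intermittent hypoxia (CIH), a model of sleep apnea. It was given for 10 h daily in 266 cycles of 135 s that took O2 down to 5%. Over the same days the OIR-Norm group received the same gas flow at a constant 20.95% O2. The comparison, with 3 libraries per group, asks how CIH alters the transcripts of the ischemic retina, and as both groups carry OIR, a level here says nothing about the healthy retina.

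Intermediate filaments are ropes of coiled proteins that give a cell its mechanical strength, and each cell type makes its own set. In the retina, Müller glia, which span all layers, and astrocytes, which lie among the nerve fibers, hold vimentin at all times, while GFAP is abundant in astrocytes and low in resting Müller glia. Raised GFAP in Müller glia is the classic sign of gliosis, and its transcription is driven by cytokines of the LIF and CNTF family through JAK kinases and STAT3.

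The libraries held from 26289905 to 38010151 counted reads, and the groups overlapped in depth. Levels are given as CPM, the reads of a gene scaled to the same total in every library, corrected by the trimmed mean of M-values. Each library contained both Xist, at 298 to 1650 CPM, and the Y-linked Ddx3y, at 21.2 to 65.0 CPM, so each held RNA of more than 1 animal, and n and the SD are over libraries. OIR-Norm 2 stood apart in lens RNA, with 488 CPM over the 6 lens markers tested against 12.8 to 82.5 CPM in the other libraries. For some genes that turn on it the log2 fold change is given without it as well. Sums, shares and list medians include it. The defining markers of Müller glia (Rlbp1, Glul, Slc1a3), astrocytes (Pax2, Pdgfra), microglia and vessels were present in all 6 libraries, and no marker tested was at 0 in any of them.

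Promoter sequence is shown for the 3 genes that set the range of the family, Gfap and Nes with the largest differences between the groups and Vim with the smallest. The windows are those of RefSeq on the build GRCm38.p6 and run 5′ to 3′ on the strand of the gene, from 250 bases before the start to 30 bases after it. In Gfap (chr11:102897171-102897450, minus strand) the capitals mark a match to TTCNNNGAA, the palindrome bound by STAT dimers. In Nes (chr3:87970843-87971122, plus strand) they mark 2 GC boxes, GGGCGG read on the opposite strand, and in Vim (chr2:13574061-13574340, plus strand) the box TATAAA.
Gfap: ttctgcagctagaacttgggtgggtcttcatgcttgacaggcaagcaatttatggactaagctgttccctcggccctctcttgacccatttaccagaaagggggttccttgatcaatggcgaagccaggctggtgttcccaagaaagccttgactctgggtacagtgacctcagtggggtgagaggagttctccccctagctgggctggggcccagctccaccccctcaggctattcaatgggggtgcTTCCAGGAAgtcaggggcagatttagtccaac
Nes: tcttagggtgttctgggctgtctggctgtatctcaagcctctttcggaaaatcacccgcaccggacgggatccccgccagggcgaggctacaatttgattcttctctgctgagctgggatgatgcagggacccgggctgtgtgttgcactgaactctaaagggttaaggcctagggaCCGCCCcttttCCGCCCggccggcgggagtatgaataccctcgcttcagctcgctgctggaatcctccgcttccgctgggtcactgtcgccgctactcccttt
Vim: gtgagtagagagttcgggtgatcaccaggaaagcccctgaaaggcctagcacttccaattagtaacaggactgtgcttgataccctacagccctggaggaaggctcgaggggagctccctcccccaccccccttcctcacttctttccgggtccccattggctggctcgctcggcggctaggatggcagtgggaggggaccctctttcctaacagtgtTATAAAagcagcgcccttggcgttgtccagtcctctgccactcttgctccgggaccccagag
The first base of the Gfap match lay at -2, counted from 0 at the RefSeq start, which itself lies inside the longer gene span of GENCODE. Over both strands of the full windows, which reach 50 bases past the start, TTCNNNGAA was found in 8.3% of 32851 promoters, TATAAA in 13.6% and GGGCGG in 35.7%. Of the 5 genes with a window, which leaves out Plec, 1 held the STAT letters. The AP-1 letters TGANTCA, found in 7.8% of all windows, occurred in 1 of the 2 windows of Lmna, which also had a GC box, and none of the letters searched for were in the window of Synm. The full palindrome of nuclear factor I was in 12 of all windows and in none of these. These matches describe the letters only, and binding was not measured.

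Gfap encodes glial fibrillary acidic protein (ENSMUSG00000020932, chr11:102887336-102900912, minus strand, 4.22 kb of exon in 11 merged exons, GRCm38). Its level was 61.5, 62.5 and 67.5 CPM in OIR-CIH 1, 2 and 3 and 158.4, 147.3 and 119.3 CPM in OIR-Norm 1, 2 and 3. Every OIR-CIH library lay below every OIR-Norm library, and the lowest OIR-Norm value was 1.77 times the highest OIR-CIH value. The means were 63.8 ± 3.19 and 141.6 ± 20.2 CPM (SD, n = 3 each), so that OIR-CIH retinas held 45.1% of the OIR-Norm level, a log2 fold change of -1.15 with an SE of 0.10. These values rest on 1568 to 4880 reads per library. In whole retina, fewer cells of a type and less RNA per cell cannot be told apart. The coefficient of variation of Gfap was 5.00% in OIR-CIH and 14.2% in OIR-Norm, so for this gene, though not for Synm or Plec, the OIR-CIH libraries were the more alike. Without OIR-Norm 2 the log2 fold change was -1.12, and without any other single library it stayed between -1.26 and -1.07.

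Vim encodes vimentin, the main filament of Müller glia, which is also made by vessel cells, fibroblasts and microglia (ENSMUSG00000026728, chr2:13573927-13582826, plus strand, 4.74 kb in 7 merged exons). It read 278.0, 249.4 and 291.1 CPM in the OIR-CIH libraries and 335.3, 312.2 and 244.7 CPM in the OIR-Norm libraries. The groups overlapped, since OIR-Norm 3 had the lowest value of all 6. The means of 272.8 ± 21.3 and 297.4 ± 47.0 CPM (SD, n = 3) gave a log2 fold change of -0.12 with an SE of 0.11, so the difference was about as large as its error. Leaving out single libraries moved it between -0.25 without OIR-Norm 3 and -0.03 without OIR-Norm 1.

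**Figure D1:**
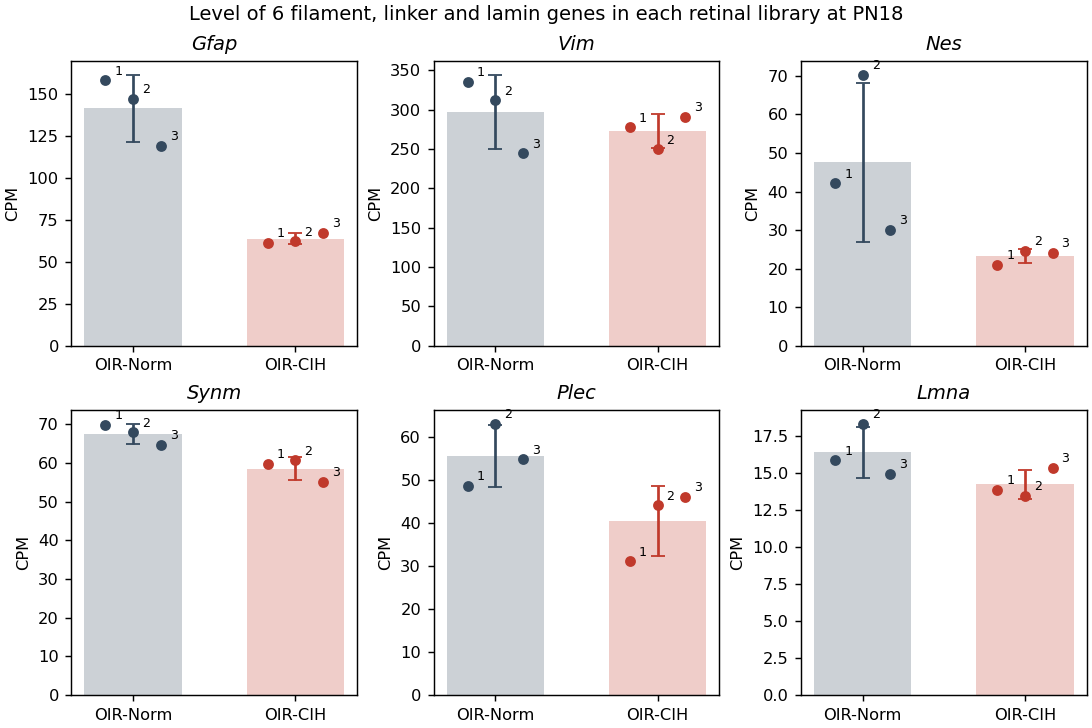
Level in CPM of Gfap, Vim, Nes, Synm, Plec and Lmna, 1 panel per gene; each point is a library with its replicate number, bars are means and error bars the SD (n = 3). The OIR-CIH points of Gfap sit between 61.5 and 67.5 CPM, below the lowest OIR-Norm point at 119.3, while those of Vim and Lmna overlap between groups.

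Nes encodes nestin, a large filament protein of neural progenitors that reactive glia and growing vessels also make (ENSMUSG00000004891, chr3:87971078-87980451, plus strand, 6.42 kb in 4 merged exons). Its level was 21.1, 24.7 and 24.1 CPM in OIR-CIH and 42.2, 70.3 and 30.1 CPM in OIR-Norm. The groups did not overlap, but OIR-Norm 3 was only 1.22 times the highest OIR-CIH library, and OIR-Norm 2 was far above the other two of its group. The mean level was 23.3 ± 1.94 CPM in OIR-CIH and 47.5 ± 20.6 CPM in OIR-Norm (SD, n = 3), and the coefficient of variation 8.34% and 43.4%. The log2 fold change was -1.03 with an SE of 0.22, and it was -0.63 without OIR-Norm 2 and -1.27 without OIR-Norm 3. OIR-Norm 2 was also the library with the most lens RNA, and it had the highest sum of pericyte and smooth muscle markers, 241.5 CPM against 91.6 to 157.0 CPM in the others, and of endothelial markers, 372.5 CPM against 285.0 to 326.7 CPM. The part of these in the Nes value was not tested.

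Synm encodes synemin, which cannot form filaments alone and joins those of vimentin and desmin (ENSMUSG00000030554, chr7:67730160-67759742, minus strand, 7.93 kb in 5 merged exons). It read 59.8, 60.8 and 55.2 CPM in OIR-CIH and 69.9, 68.0 and 64.8 CPM in OIR-Norm. Here too the groups did not overlap, by a narrow margin of 1.07 times between the nearest libraries. The means of 58.6 ± 3.03 and 67.6 ± 2.61 CPM (SD, n = 3) put OIR-CIH at 86.7% of OIR-Norm, with a log2 fold change of -0.21 and an SE of 0.07. Single libraries moved this value little, from -0.24 to -0.17. Of its exonic bases, 1.06% and 5.37% are shared with Ttc23 and Gm45102 on the opposite strand, and which strand was counted is not given in the sources used here, so a small share of its reads is uncertain.

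Plec encodes plectin, the giant linker that binds filaments to each other, to adhesion sites and to the nucleus (ENSMUSG00000022565, chr15:76170974-76232574, minus strand, 18.11 kb in 46 merged exons). Its level was 31.1, 44.1 and 46.1 CPM in OIR-CIH and 48.7, 63.1 and 54.8 CPM in OIR-Norm. The groups were next to each other without overlap, and OIR-CIH 1 was well below the rest. The mean level was 40.4 ± 8.13 against 55.5 ± 7.24 CPM (SD, n = 3), a log2 fold change of -0.45 with an SE of 0.13 that became -0.30 without OIR-CIH 1 and -0.56 without OIR-CIH 3. Long transcripts as a class leaned the same way. Among 1456 genes with at least 10 kb of exon and a mean of at least 1 CPM, 76.7% had a lower value under CIH and the median log2 fold change was -0.09, whereas it was 0.11 for 2030 genes under 2 kb. The long genes were lowest in OIR-CIH 1, the library in which Plec was lowest, and the part of transcript length in the Plec value was not tested. A stretch of 205 exonic bases, 1.13% of Plec, is shared with Parp10 on the same strand.

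Lmna encodes lamins A and C, the filaments under the nuclear membrane to which the cytoplasmic ones connect through the LINC complex (ENSMUSG00000028063, chr3:88480147-88509956, minus strand, 5.84 kb in 13 merged exons). It was the least abundant of the 6 in CPM, at 13.9, 13.5 and 15.4 CPM in OIR-CIH and 15.9, 18.4 and 15.0 CPM in OIR-Norm, and rests on 354 to 581 reads. The highest OIR-CIH library was above the lowest OIR-Norm library, so the groups overlapped. The log2 fold change of -0.20 (SE 0.11) was -0.11 without OIR-Norm 2. Lmna lies 500 kb from Nes on the same chromosome, and the pair differed between the groups by -0.20 and -1.03.

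All 6 genes thus had a lower mean in OIR-CIH, where 50.5% of all genes tested did, and their median log2 fold change was -0.33 against a median of -0.00 over all genes. In 4 of 6 every OIR-CIH library lay below every OIR-Norm library, as in 9.26% of all genes. A call, for which edgeR's quasi-likelihood test had to give an adjusted p below 0.05 and the log2 fold change had to exceed 0.5 in size, was reached by 1 of 6, Gfap, and by 0.315% of all genes (63 of 20021). Since these values were known when the genes were picked, nothing is read from these counts. What they describe is the spread within the family, from about -1 for Gfap and Nes to near 0 for Vim. The Nes value turned on OIR-Norm 2 and was -0.63 without it, whereas Gfap stayed between -1.26 and -1.07 without any single library.

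Levels were divided by exon length, so that genes can be set roughly against each other. That length is of all annotated exons of a gene merged, which can exceed the transcript present, so levels between genes are approximate. On this scale Vim was the most abundant transcript in both groups at 57.5 ± 4.49 CPM per kb in OIR-CIH and 62.7 ± 9.92 in OIR-Norm (SD, n = 3). Gfap followed at 15.1 ± 0.757 and 33.6 ± 4.78 CPM per kb, and Synm at 7.39 ± 0.382 and 8.52 ± 0.329. Nes was next at 3.63 ± 0.303 and 7.41 ± 3.21 CPM per kb. Plec, at 2.23 ± 0.449 and 3.06 ± 0.400 CPM per kb, and Lmna, at 2.44 ± 0.170 and 2.81 ± 0.298, closed the order and overlapped each other in both groups. In OIR-CIH every other neighbor in the order was separate in each library, and in OIR-Norm Synm and Nes also overlapped, because Nes in OIR-Norm 2 was above all 3 Synm values.

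The balance of Gfap to Vim separated the groups with little spread inside either. Per kb, Gfap was 0.249, 0.282 and 0.261 of Vim in the OIR-CIH libraries and 0.531, 0.531 and 0.548 of Vim in the OIR-Norm libraries. The OIR-Norm ratios were closer together than the Gfap levels themselves, as OIR-Norm 3 was the lowest of its group for both genes. Because both genes are read from the same library, its scaling has no part in this ratio. Nes over Vim was 0.0560, 0.0732 and 0.0612 against 0.0931, 0.167 and 0.0909, and Synm over Vim was 0.129 ± 0.0163 against 0.138 ± 0.0180 (SD, n = 3), with the groups overlapping. Of the summed CPM per kb of the 4 cytoplasmic filament genes, Gfap made up 18.1 ± 0.712% in OIR-CIH and 30.0 ± 0.812% in OIR-Norm. The share of Vim was correspondingly 68.7 ± 1.78% and 55.9 ± 1.24%, while Nes and Synm took 4.35 ± 0.489% and 8.86 ± 0.916% in OIR-CIH and 6.50 ± 2.27% and 7.69 ± 0.967% in OIR-Norm. These are ratios of RNA, and their size depends on the exon lengths used. They describe unequal differences among genes picked with their values known, and do not show that any of them stayed the same.

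**Figure D2:**
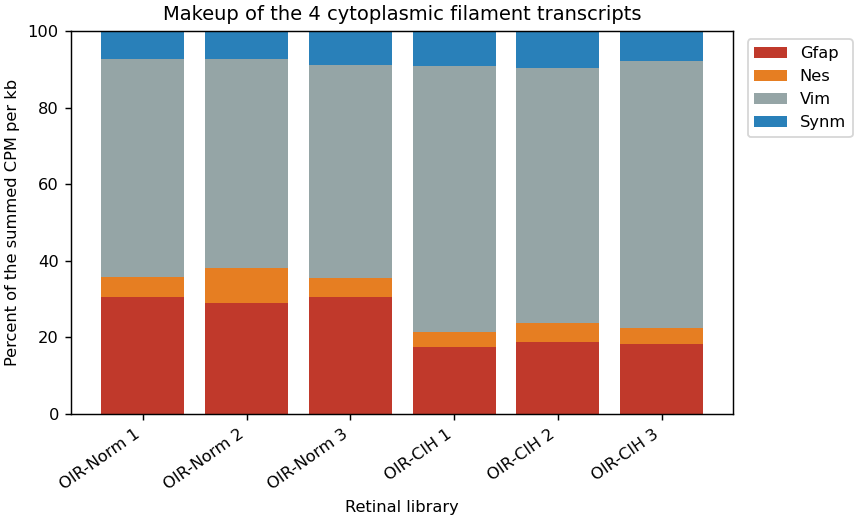
Share of Gfap, Nes, Vim and Synm in their summed CPM per kb of exon (percent, vertical axis), 1 stacked bar per library. Gfap takes 17.4 to 18.8% of the sum in the 3 OIR-CIH libraries and 29.0 to 30.5% in the 3 OIR-Norm libraries, and Vim takes most of the rest.

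Other filament genes, which had no part in the choice of the 6, were compared by the same fit with p adjusted over all genes. The neuronal filaments, which fill the axons of ganglion and horizontal cells, had 0 of 5 genes called in either direction and a median log2 fold change of -0.12. The light chain Nefl was at 356.0 ± 39.4 CPM in OIR-CIH and 354.9 ± 24.5 CPM in OIR-Norm (SD, n = 3; log2 fold change 0.00, SE 0.10, edgeR adjusted p = 0.990). The medium chain Nefm differed by -0.12 (SE 0.10, edgeR adjusted p = 0.667) and internexin, Ina, by -0.05 (SE 0.09, edgeR adjusted p = 0.848). For the heavy chain Nefh all OIR-CIH libraries, 85.6, 92.0 and 100.5 CPM, were below the OIR-Norm libraries, the lowest of which was at 102.9 CPM and the highest at 122.1 CPM, and the difference of -0.25 (SE 0.09) had an edgeR adjusted p of 0.285. Peripherin, Prph, at means of 7.93 ± 1.06 and 10.9 ± 0.970 CPM (SD, n = 3) that did not overlap, differed by -0.46 (SE 0.14, edgeR adjusted p = 0.226). Summed, the 5 genes ranged from 672.8 to 818.0 CPM in OIR-CIH and from 757.6 to 811.8 CPM in OIR-Norm. Ganglion and horizontal cell markers also had 0 of 8 genes called, with a median of 0.03.

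Of the filaments of muscle, lens and epithelia, 0 of 8 were called, with a median log2 fold change of 0.25 and values on both sides of 0. The lens filament Bfsp1 was at 14.7 CPM in OIR-Norm 2 and at 1.22 to 2.05 CPM in the other libraries, and its difference of -1.72 (SE 0.70, edgeR adjusted p = 0.331) became 0.21 without OIR-Norm 2. Keratin 8, Krt8, differed by 0.54 (SE 0.24, edgeR adjusted p = 0.366). The sum of the 8 was 95.4 to 112.5 CPM in OIR-CIH and 91.3 to 107.3 CPM in OIR-Norm. Most of it was keratin 18, Krt18, the partner of keratin 8, at 92.9 ± 8.21 and 84.4 ± 11.9 CPM (SD, n = 3), groups that overlapped.

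The relatives of plectin and the anchors that tie filaments to the membrane had 0 of 13 genes called and a median of -0.26, with 12 of 13 values lower in OIR-CIH. Dystrophin, Dmd, which tethers the glial endfoot to the basement membrane, was at 209.9 ± 21.5 against 264.5 ± 20.1 CPM (SD, n = 3; log2 fold change -0.33, SE 0.09, edgeR adjusted p = 0.193). Vinculin, Vcl, of adhesion sites differed by -0.36 (SE 0.11, edgeR adjusted p = 0.247). Both genes were lower in all OIR-CIH libraries than in any OIR-Norm library. The plakins Dst and Macf1, with 41.2 and 31.4 kb of exon, differed by -0.32 and -0.33. With Dmd, which has 23.8 kb, they are in the class of long genes described with Plec, and the part of length in their values was not tested.

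Chaperones, kinases and proteases that act on filaments had 0 of 12 genes called and a median of -0.10. Cdk5, a kinase of neurofilaments, was at 58.2 ± 0.842 CPM in OIR-CIH and 51.0 ± 1.06 CPM in OIR-Norm (SD, n = 3; log2 fold change 0.19, SE 0.07, edgeR adjusted p = 0.284), and Rock2, which phosphorylates GFAP and vimentin as cells divide and has 13.9 kb of exon, among the long genes too, differed by -0.25 (SE 0.08, edgeR adjusted p = 0.228). Cryab, the chaperone that binds GFAP and vimentin and is also a lens protein, was between 46.5 and 49.1 CPM in OIR-CIH and at 48.3, 101.2 and 37.5 CPM in OIR-Norm, so its high value was again in OIR-Norm 2. Around Lmna, 0 of 18 genes of the nuclear lamina and the LINC complex were called, with a median of -0.01. Emerin, Emd, a partner of lamin A, differed by 0.35 (SE 0.10, edgeR adjusted p = 0.185). Nesprin-3, Syne3, the outer membrane protein to which plectin binds, was at 19.9, 27.2 and 21.0 CPM in OIR-CIH and 30.7, 32.4 and 31.3 CPM in OIR-Norm, a difference of -0.47 (SE 0.11, edgeR adjusted p = 0.142). Without OIR-CIH 2, in which Syne1, Syne2 and Syne3 were each highest of their group, 3 of the 18 were called lower, Syne1 (-0.86, edgeR adjusted p = 0.0245), Syne2 (-0.72, 0.0271) and Syne3 (-0.62, 0.0361). Syne1 and Syne2, the giant nesprins, have 40.5 and 26.7 kb of exon, so they too are among the long genes described with Plec. Over these 5 lists, 0 of 56 genes were called, where 0.315% of all genes were, and the smallest of their adjusted p was 0.142. At an unadjusted p under 0.05, 18 of the 56 passed, 13 of them lower in OIR-CIH, and so did 2645 of the 20021 genes tested. DESeq2 and limma also called 0 of the 56. The count was 3 without OIR-CIH 2, the nesprins above, and 2 when all genes with at least 1 count were tested, Bfsp1 (edgeR adjusted p = 0.0461) and Syne1 (0.0173).

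**Figure D3:**
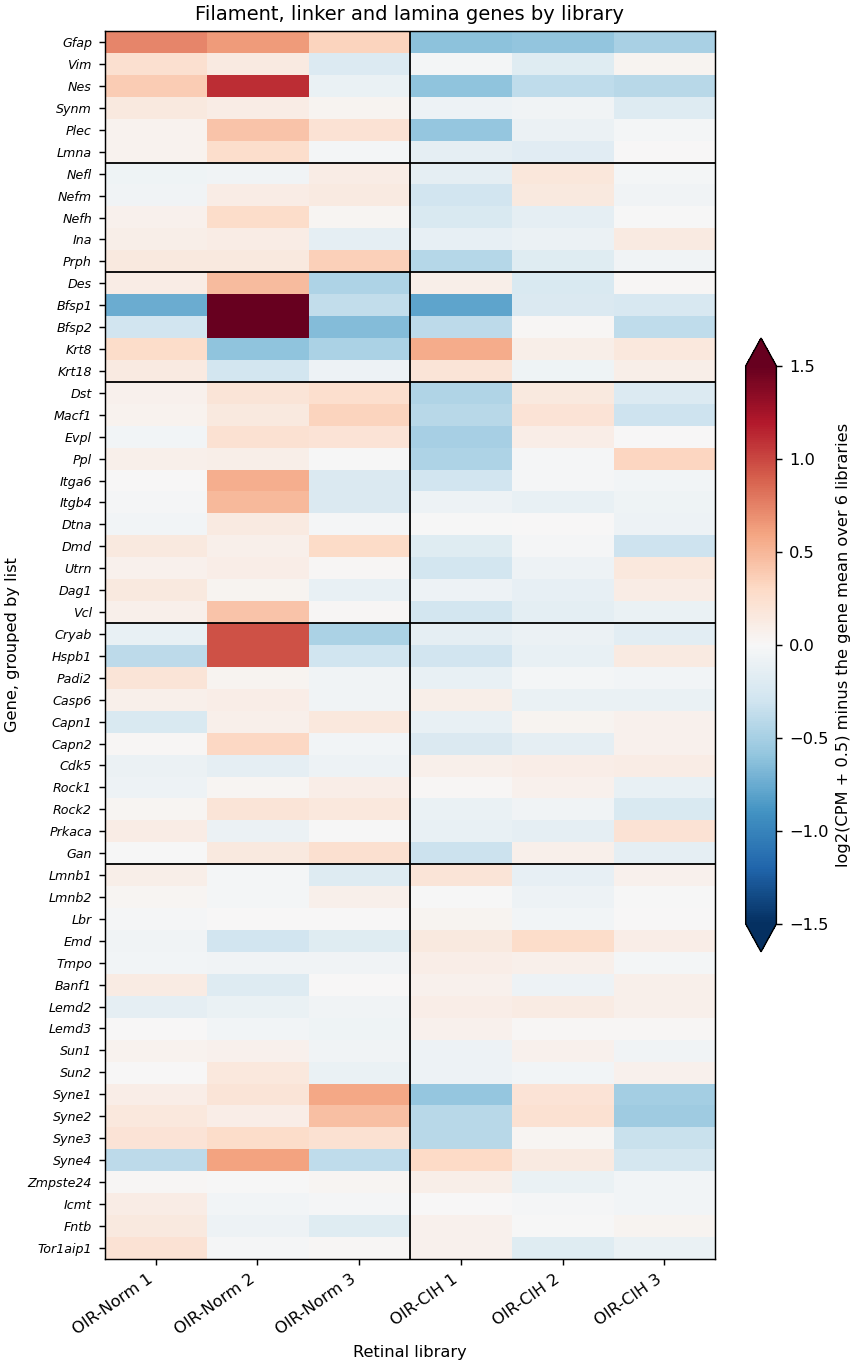
Each row is a gene and each column a library; color is log2(CPM + 0.5) minus the mean of the gene over the 6 libraries, with lines between lists and between groups. Gfap is above its mean in all OIR-Norm libraries and below it in all OIR-CIH libraries, while Bfsp1 and Cryab are high in OIR-Norm 2 only.

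The genes upstream of Gfap were then read. Their list was chosen with earlier results of these data known, so its calls are not independent evidence of a direction. Among 18 regulators (cytokines of the LIF and CNTF family, their receptors, JAK and STAT proteins and glial transcription factors) 2 fell, 0 rose and 16 were not called, with a median of -0.13, where 0.215% of all genes were called lower. At an unadjusted p under 0.05, 7 of the 18 passed, 6 of them lower. Leaving out single libraries gave 1 to 5 calls, the most without OIR-Norm 3, where the cytokine Lif and the receptor subunits Osmr and Il6st were called lower too (-2.69, -0.89 and -0.51), and testing all genes with at least 1 count gave 4. Lif read 1.10, 1.70 and 0.820 CPM in OIR-CIH and 2.73, 12.7 and 1.92 CPM in OIR-Norm. Its high value was thus in OIR-Norm 2, and over all 6 libraries it was not called (-2.27, SE 0.60, edgeR adjusted p = 0.173). Stat3, the transcription factor that carries the cytokine signal to the Gfap gene, fell from 150.9 ± 15.8 CPM in OIR-Norm to 97.3 ± 1.12 CPM in OIR-CIH (SD, n = 3; log2 fold change -0.63, SE 0.08, edgeR adjusted p = 0.00482). Its values were 96.4, 98.6 and 97.1 CPM against 157.1, 162.7 and 132.9 CPM. Socs3, the feedback inhibitor that STAT3 induces, read 7.81, 8.81 and 8.02 CPM in OIR-CIH and 15.2, 31.2 and 16.3 CPM in OIR-Norm and fell by 1.35 on the log2 scale (SE 0.23, edgeR adjusted p = 0.0209). Without OIR-Norm 2 the change of Socs3 was -0.94, and its call was lost without OIR-CIH 1, 2 or 3, at edgeR adjusted p of up to 0.163.

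Of 15 genes listed for reactive glia 9 fell, 0 rose and 6 were not called, with a median log2 fold change of -1.03, against 0.215% of all genes called lower. In whole retina the cells that made these RNAs, that of Edn2 among them, cannot be told. The study names C4b among the genes lower under CIH in the same samples, and this list was chosen with earlier results of these data known. Its count is therefore not independent evidence of a direction. The fallen genes included Serpina3n, a secreted protease inhibitor, at 13.5, 10.7 and 13.6 against 33.8, 35.2 and 28.7 CPM (log2 fold change -1.37, SE 0.12, edgeR adjusted p = 0.00011). The complement gene C4b read 18.6, 20.3 and 21.2 against 44.7, 43.7 and 42.6 CPM (-1.12, SE 0.08, edgeR adjusted p = 5.59e-05). Cebpd, a transcription factor of the acute-phase response, fell by 1.19 (SE 0.11, edgeR adjusted p = 0.000211), the endothelin Edn2 by 2.18 (SE 0.17, edgeR adjusted p = 8.48e-05) and the growth factor Fgf2 by 1.03 (SE 0.09, edgeR adjusted p = 0.00011). Tgm2, an enzyme that cross-links proteins, fell by 1.14 (SE 0.17, edgeR adjusted p = 0.0122), and ceruloplasmin, Cp, an iron-oxidizing glycoprotein, by 0.63 (SE 0.08, edgeR adjusted p = 0.00409). Steap4, a metal reductase, and Timp1, an inhibitor of matrix proteases, fell too, with log2 fold changes of -2.15 (SE 0.38, edgeR adjusted p = 0.0284) and -1.51 (SE 0.26, edgeR adjusted p = 0.0233), from means of only 1.16 and 2.74 CPM in OIR-Norm. Leaving out any OIR-CIH library or OIR-Norm 2 ended the calls of Steap4 and Timp1, as did leaving out OIR-Norm 3 for Steap4, with edgeR adjusted p of up to 0.179 and 0.129, and the call of Tgm2 was lost without OIR-CIH 1 or OIR-CIH 3, at up to 0.0969.

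Gfap was placed among all genes by the likeness of its pattern. For each of 14799 genes with a mean of at least 1 CPM, the root mean square difference from Gfap was taken over log2(CPM + 0.5) values centered on the mean of each gene over the 6 libraries. The 8 nearest genes were C4b, at 0.108, Cebpd, at 0.122, Gna14, at 0.145, Serpina3n, at 0.156, ENSMUSG00000061654, which had no symbol in the tables used, at 0.159, Pcolce, at 0.172, Tgm2, at 0.173, and Slc7a11, at 0.179. The G protein subunit Gna14 was near 1 CPM in OIR-CIH, with a mean of 1.03 ± 0.178 CPM against 2.33 ± 0.234 CPM (SD, n = 3). Pcolce, an enhancer of procollagen processing, read 22.5, 16.8 and 18.6 against 43.6, 41.7 and 40.9 CPM, and Slc7a11, the cystine importer, 7.89, 8.88 and 9.98 against 17.2, 18.6 and 13.0 CPM. A gene this near to Gfap must have a fold change near that of Gfap, so nothing is read from the calls of these genes or from their place in other lists. The call of Gna14 was lost without any single library, at edgeR adjusted p of 0.056 to 0.255, and that of Slc7a11 without OIR-CIH 1, OIR-CIH 2, OIR-Norm 1 or OIR-Norm 2, at up to 0.168. By the same measure Nes ranked 75 (0.314), Plec 390 (0.408), Synm 1249 (0.481), Lmna 1271 (0.482) and Vim 2174 (0.513).

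**Figure D4:**
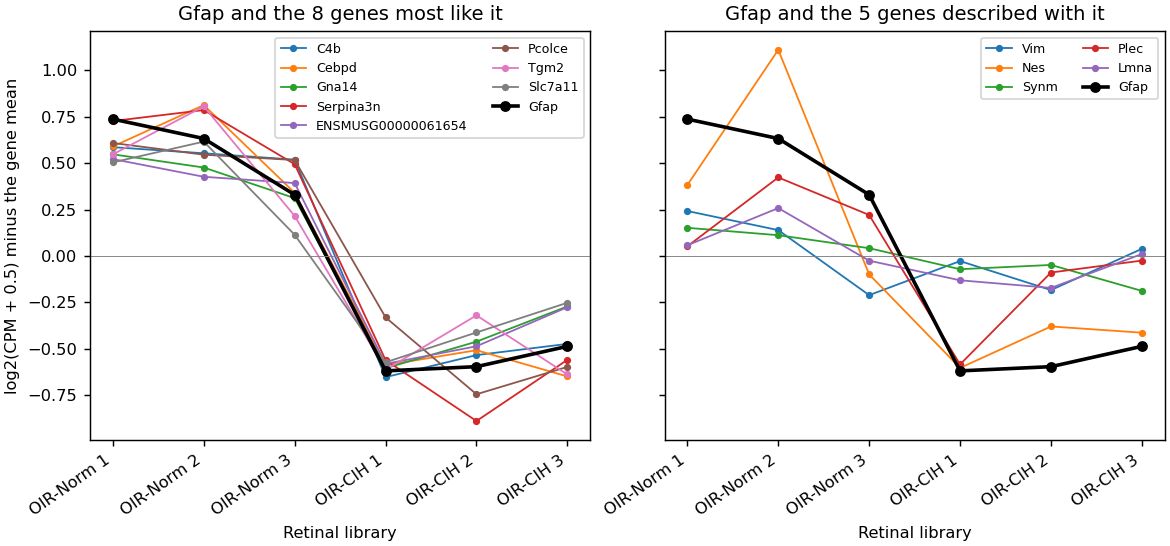
Centered log2(CPM + 0.5) in each library (horizontal axis) for Gfap, in black, with the 8 genes most like it (left) and with Vim, Nes, Synm, Plec and Lmna (right); lines only join the points of a gene. The 8 genes keep close to Gfap in all libraries, whereas on the right Nes peaks in OIR-Norm 2 and the other 4 lie nearer to 0.

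Markers of the cells that make these filaments were set beside the family. Müller glia markers had 0 of 13 genes called and a median of 0.06, and their summed level, 4267 to 5055 CPM in OIR-CIH and 4196 to 4576 CPM in OIR-Norm, overlapped between the groups. The water channel Aqp4 of the glial endfeet was at 76.0 ± 2.56 against 94.2 ± 4.47 CPM (SD, n = 3; -0.31, SE 0.07, edgeR adjusted p = 0.103), and Car14, a carbonic anhydrase, at 108.0 ± 9.04 against 82.1 ± 7.75 CPM (0.40, SE 0.09, edgeR adjusted p = 0.0989). Of the 13 Müller glia markers, 5 had a lower and 8 a higher value in OIR-CIH. The part of Müller glia number in the Gfap level was not tested. Astrocyte markers had 0 of 5 genes called, a median of -0.38 and sums of 119.9 to 153.5 and 129.8 to 194.5 CPM. Pax2, a transcription factor of astrocytes, was at 1.10, 1.18 and 1.27 against 1.69, 1.93 and 1.54 CPM (-0.53, SE 0.22, edgeR adjusted p = 0.344), and Pdgfra, the receptor by which astrocytes spread, at 27.6, 31.0 and 32.8 against 38.3, 52.0 and 35.8 CPM (-0.46, SE 0.13, edgeR adjusted p = 0.196). In both genes every OIR-CIH library was below every OIR-Norm library, as in 9.26% of all genes. For the other astrocyte markers, S100b (-0.11), Aldh1l1 (0.03) and Gja1 (-0.38), the groups overlapped. The part of astrocyte number in the Gfap level was not tested.

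Vessel cells, which make vimentin and nestin, were read in the same way. Endothelial markers had 0 of 10 genes called, with a median of -0.22, and pericyte and smooth muscle markers 0 of 9, with a median of -0.51. The pericyte gene Rgs5 was at 57.0, 73.6 and 96.5 CPM in OIR-CIH and 107.5, 166.5 and 72.5 CPM in OIR-Norm (-0.61, SE 0.24, edgeR adjusted p = 0.323). The OIR-Norm libraries had the same order as for Nes, but the OIR-CIH libraries did not. Without OIR-Norm 2 the difference of Rgs5 was -0.25. Genes of the cell cycle, a state in which nestin is made, had 0 of 10 called, a median of -0.27 and sums of 16.5 to 18.7 CPM against 18.9 to 26.0 CPM, which did not overlap. Microglia markers had 1 of 15 genes called lower (0.215% of all genes) and 7 at an unadjusted p under 0.05, all lower. The call was the Fc receptor-like gene Fcrls (-0.69, SE 0.13, edgeR adjusted p = 0.0414, and up to 0.142 without any 1 of the libraries other than OIR-Norm 2). Their median was -0.29 and their sums were 128.9 to 146.3 against 157.5 to 176.7 CPM. Rod markers (0 of 9 called, median 0.13) and pigment epithelium markers (0 of 8 called, median -0.21) did not give a call either, and neither did lens markers (0 of 6 tested), whose median of -2.12 came with the high lens RNA of OIR-Norm 2. The pigment epithelium values split, with 6 lower and 2 higher, Ttr (0.75, edgeR adjusted p = 0.103) and Rpe65 (0.65, edgeR adjusted p = 0.252). Both were called higher with the replicate block and when genes with at least 1 count were tested, and Ttr also without OIR-Norm 1. At an unadjusted p under 0.05 the counts in the lists without a call were 6 for Müller glia (2 of them lower), 2 for astrocytes, 1 for endothelium, 3 for pericytes and smooth muscle, 2 for the cell cycle, 1 each for rods and for ganglion and horizontal cells, 3 for pigment epithelium and 4 for lens. Under DESeq2 these lists had 0 calls except 1 for pericytes and smooth muscle, and under limma 0. None of these values was tested for its part in the filament levels.

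**Figure D5:**
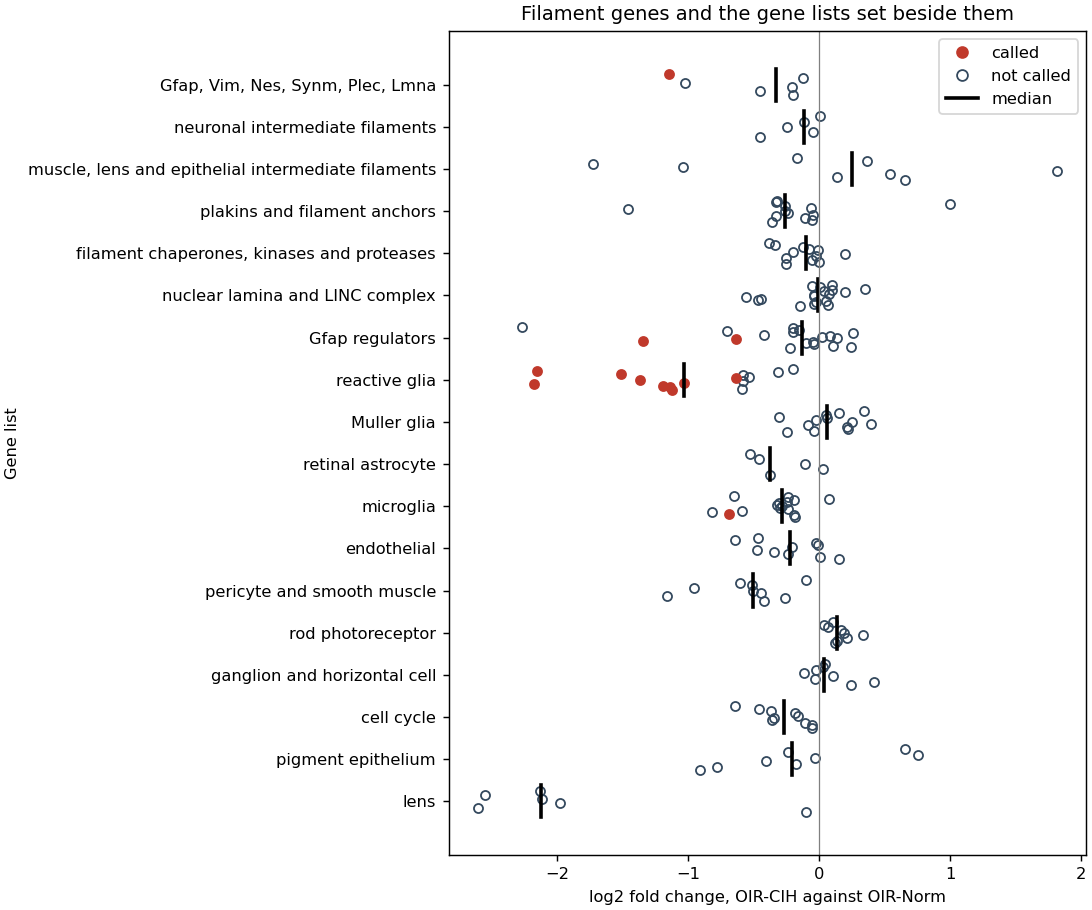
Each point is a gene, placed by its log2 fold change of OIR-CIH against OIR-Norm, with the 6 filament genes in the top row and a list in each row below; filled points were called and black bars are medians. Called genes lie in the row of the 6 genes (Gfap, shown as a description) and in the lists of Gfap regulators, reactive glia and microglia, all to the left of 0.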

How the data were processed

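Retinal RNA of 3 OIR-CIH and 3 OIR-Norm samples at PN18 was sequenced from poly(A)-selected, strand-specific libraries made from 250 ng of total RNA. The authors aligned the reads with STAR 2.7.9a, which also counted them, and deposited raw counts per gene for the 6 libraries in 1 table, without normalization. The paper's methods name Ensembl 105 as the reference, whereas the submitters' processing notes name GRCm38, and positions given here are those of GENCODE M21 on GRCm38. The strand setting of the counts is not given in the sources used here. The paper calls each sample an eye, but every library held RNA of both sexes, so p-values measure the spread between libraries only.

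The 20021 of 32285 genes whose counts summed to 10 or more were fitted over all 6 libraries with edgeR 4.0.16 in R 4.3.3, by the quasi-likelihood test with scaling by the trimmed mean of M-values. A call needed a Benjamini-Hochberg adjusted p under 0.05 over all genes and an absolute log2 fold change over 0.5. Symbols were found for 32158 gene identifiers. The script was tested on simulated counts. The 6 genes and the lists were chosen with earlier results of these data known, so the 6 genes have no p. Named were the 6 genes, the genes called in each list or else the pair of lowest p, all neuronal filaments and the 8 genes nearest to Gfap, and uncalled pairs of the lists of vessel, microglia, neuron, cell cycle, pigment epithelium and lens genes are printed only where the text turns on them. Cryab, Dst, Macf1, Krt18, Syne1, Syne2, Lif, Osmr, Il6st, S100b, Aldh1l1 and Gja1 were named after their values were seen. An exact permutation test of 3 against 3 libraries cannot go below p = 0.1. Alternatives were DESeq2 1.42.0, limma 3.58.1 on log2(CPM + 0.5), median-of-ratios and library size scaling, 2 other filters on low counts, a replicate block and leaving out each library. No replicate pair was as alike as sampling noise would make it.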

Additional observations from a re-analysis of the deposited data

How the results depend on the processing

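All 6 filament genes kept the sign of their log2 fold change under the 13 alternatives, and Gfap was called under each of them. As these genes were picked with their values known and the same libraries were refitted, nothing is read from their calls here. Leaving out single libraries gave -1.26 to -1.07 for Gfap, -0.25 to -0.03 for Vim, -1.27 to -0.63 for Nes, -0.24 to -0.17 for Synm, -0.56 to -0.30 for Plec and -0.26 to -0.11 for Lmna. The number of genes called was 63 (43 lower, 20 higher) by edgeR and 135 (101 lower, 34 higher) by DESeq2, which called all 63. It was 213 (153 lower, 60 higher) when all 24439 genes with at least 1 count were tested, with 2 of the 6 genes, Gfap and Nes, and 23 list genes lower and 2 higher. The cause of these shifts was not tested. Single libraries left out gave 35 to 104 genes called (24 to 88 lower, 11 to 33 higher), with 1 to 2 of the 6 genes, 7 to 14 list genes lower and 0 to 1 higher. The lowest count was without OIR-CIH 1 and the highest without OIR-Norm 3, when Nes was called too, and without OIR-Norm 1 the higher calls were 33. With the replicate block 84 genes were called, 32 of them higher, among them 2 list genes, and 2 of the 6 genes were called, Gfap and Nes. Same-numbered libraries deviated together for numbers 1 and 2 (r = 0.162 and 0.143 over 14800 genes) but not for number 3 (r = -0.238). Whether the numbers mark pairs is not given in the labels and is not settled by these values. Nefl changed sign around 0, to -0.02 with library size alone and -0.00 with edgeR's own filter, and from -0.09 to 0.07 without single libraries. Without OIR-Norm 2 the lens genes Bfsp1, Cryba1 and Crygs turned to 0.21, 0.66 and 0.18, in ranges over single libraries that began at -2.21, -3.77 and -3.78. Over the 13 alternatives the call was lost for Fcrls and Gna14 in 7, Steap4 in 5, Timp1 and Slc7a11 in 4, Socs3 in 3 and Tgm2 in 2, and in 0 for Stat3, Serpina3n, C4b, Cebpd, Cp, Edn2, Fgf2 and Pcolce. The 0 calls among the 56 filament and partner genes became 3 without OIR-CIH 2 (Syne1, Syne2, Syne3) and 2 with all genes of at least 1 count (Bfsp1, Syne1). At this depth Steap4, Timp1 and Gna14 rest on few reads.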
